A study of Mus musculus with 13 samples.

Results

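Insertions of a Sleeping Beauty transposon were counted inside and within 50 kb of 44 genes of the mouse pluripotency network. Deposited positions within 10 bp of one another were taken as 1 site, whose coordinate is that of its best-supported position. Windows were taken from GENCODE M21 gene models on GRCm38, and overlapping windows were joined, which left 40 separate windows with 5.59 Mb in all. They held 64 of the 31146 sites of one pool (0.205%) and 4 of the 746 sites of another (0.536%).

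The cells were F123, an embryonic stem cell line from a cross of Mus musculus castaneus (Cast) with strain 129, grown without serum in nDiff227 medium with LIF and the 2i inhibitors PD0325901 (of MEK, upstream of ERK) and CHIR99021 (of GSK3). Both pools and a control without transposons are labelled wild type. One pool, here the remobilized pool, is labelled TRACK-IT post-remobilization, and the line it came from, the TRACK-IT parental line, was not analysed here. The other, here the plasmid pool, is labelled random plasmid remobilization. The control was treated alike and carries no transposon. T7 RNA polymerase transcribed from the transposon into the flanking sequence on purified genomic DNA, and the RNA was made into stranded libraries and sequenced. A further 9 lines, each 1 clone, are labelled rad21-dTag and were sequenced in another run. Each pool is 1 library of many cells without a replicate, so every comparison below is between positions in a library or between 2 libraries, and no value reports expression. The stem cell label therefore could not be checked against marker genes.

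The plasmid pool held 63031 placed reads and the remobilized pool 2116, with a median of 2 reads per site in both. The control held 1 read, which had no position, and 0 sites in the windows. The 9 clones also had 0 sites there, but they held only 1 to 26 sites each over the whole genome. That is too few for their 0 to say anything about these windows. Reads carry no molecular identifiers, and intervals given below are exact 95% intervals that cover counting error only.

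Pluripotency is the ability of a cell to form every tissue of the embryo. In mouse embryonic stem cells it is held by a network of transcription factors around Pou5f1 (Oct4), Sox2 and Nanog, which bind together at many genes. LIF, through its receptor and Stat3, and inhibitors of the ERK and GSK3 kinases keep the cells in the naive state, while FGF and Nodal signals take part in the exit from it. Sleeping Beauty inserts at the dinucleotide TA.

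Exonic insertions show this target site directly, since their bases can be read from GENCODE transcripts. Only 4 of the 64 plasmid pool sites lay in exons of the listed genes. Each sequence below runs along the gene over 30 bases around the site, and capitals mark the TA nearest to the deposited base.
Klf4, 3′ UTR, chr4:55527828-55527857, minus strand: actggatggatcttcTAtcattccaatacc
Trim28, coding exon, chr7:13027854-13027883, plus strand: agtgaggaaccaacgTAaactcttggcttc
Jarid2, 3′ UTR, chr13:44920106-44920135, plus strand: tcaagtttttgtacgTAgatatctagatac
Klf5, 3′ UTR, chr14:99314180-99314209, plus strand: gaaatgcttaaagaTAgctaccatacacag
A TA covered the deposited base in all 4. In Klf4, Trim28 and Jarid2 the T of the TA was the deposited base, and in Klf5 it was the base before it.

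The first comparison asked whether the windows of these genes took insertions as often as those of other genes. In place of random draws, the windows of all 20088 protein-coding genes of the 18 chromosomes that carry the listed genes were used. The plasmid pool had 11.5 sites per Mb (8.82 to 14.6) in the windows of the pluripotency genes and 13.1 sites per Mb in those of all protein-coding genes. From the density of protein-coding windows on each gene's own chromosome, 72.9 sites were expected, and the 64 observed were 0.878 times that number (0.676 to 1.12). The interval includes 1, so a difference in density was not detectable at this depth. The median over single windows was 9.28 sites per Mb for the pluripotency genes and 9.81 for all protein-coding genes. Windows had medians of 115.7 and 117.7 kb, but those of all protein-coding genes reached 4535 kb and those of the listed genes 292.2 kb.

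**Figure D1:**
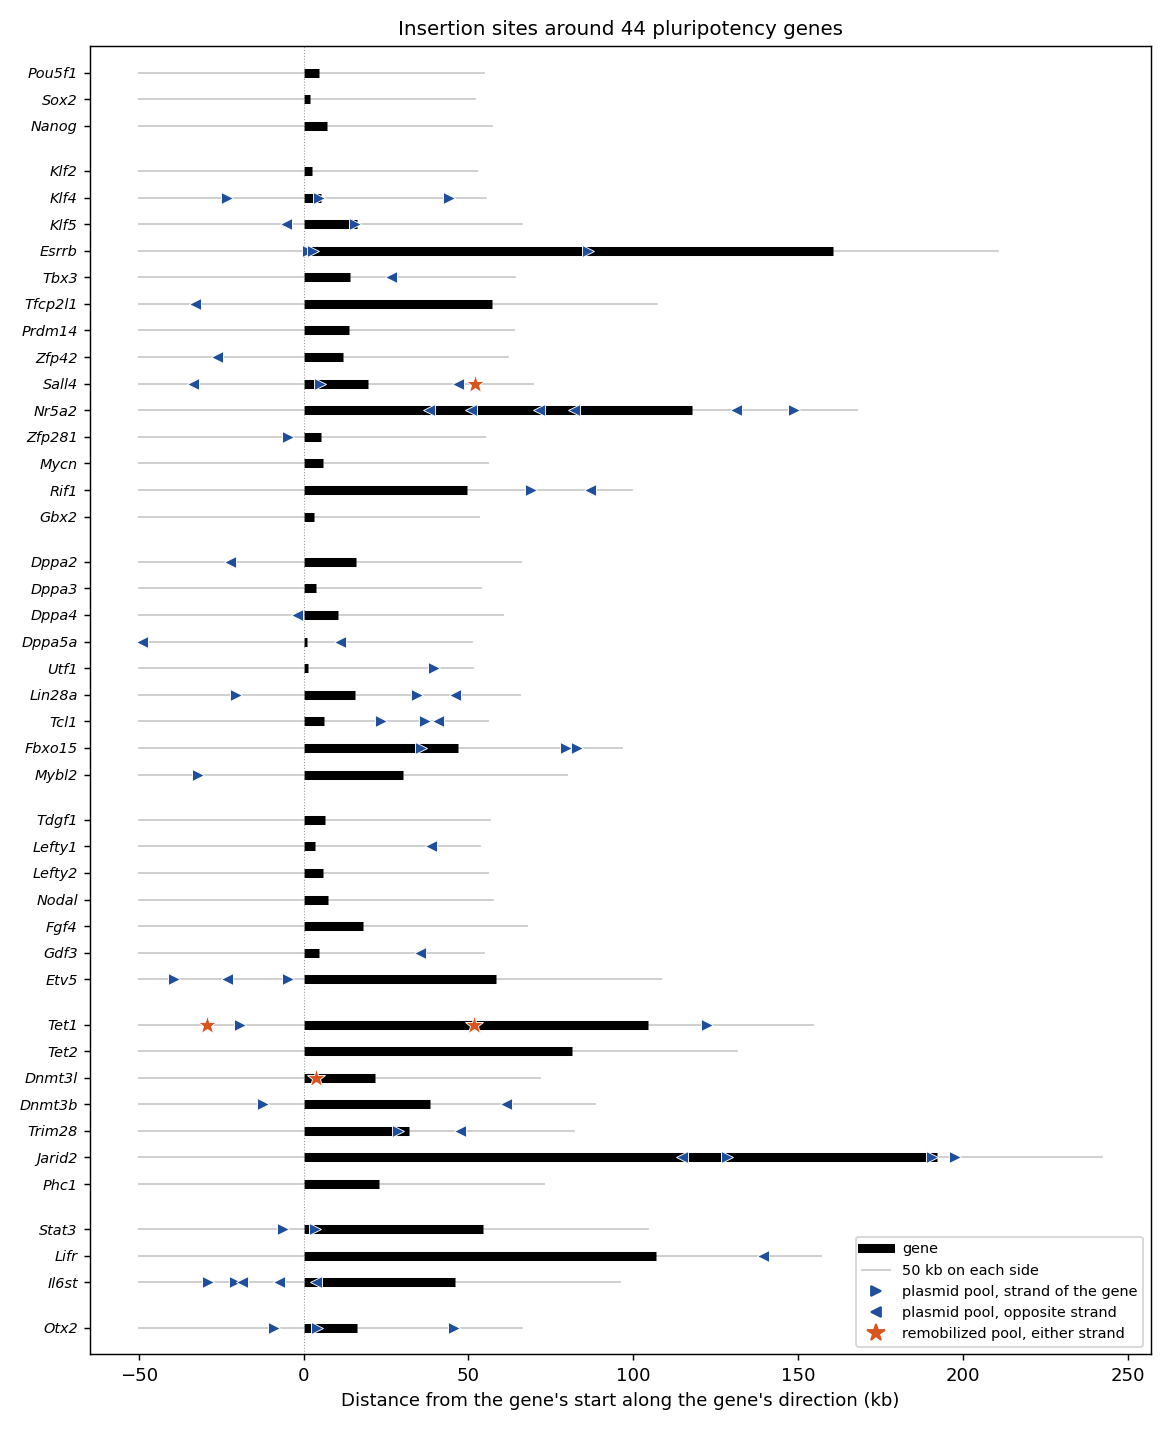
Positions of all sites of both pools in the windows of the 44 genes, as distance in kb from the gene's start along the gene's direction. Black bars are genes, grey lines the 50 kb on each side, blue triangles the 64 plasmid pool sites (a site reached by 2 windows is drawn in both) and orange stars the 4 remobilized pool sites; the rows of Pou5f1, Sox2 and Nanog are empty.

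Sites were spread thinly, and many windows had none. In the plasmid pool 15 of 44 genes had 0 sites in their window (34.1%, 20.5 to 49.9), against 20.9% of all protein-coding genes. One site was found at 11 genes, 2 sites at 6, 3 sites at 9, and 4, 5 and 6 sites at 1 gene each. With windows of one length, 50 kb to either side of the gene's start, 18 genes had 0 sites (40.9%, 26.3 to 56.8), against 29.0% of all protein-coding genes. Both intervals include the share of all genes, and neighbouring genes of the list share parts of their windows.

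**Figure D2:**
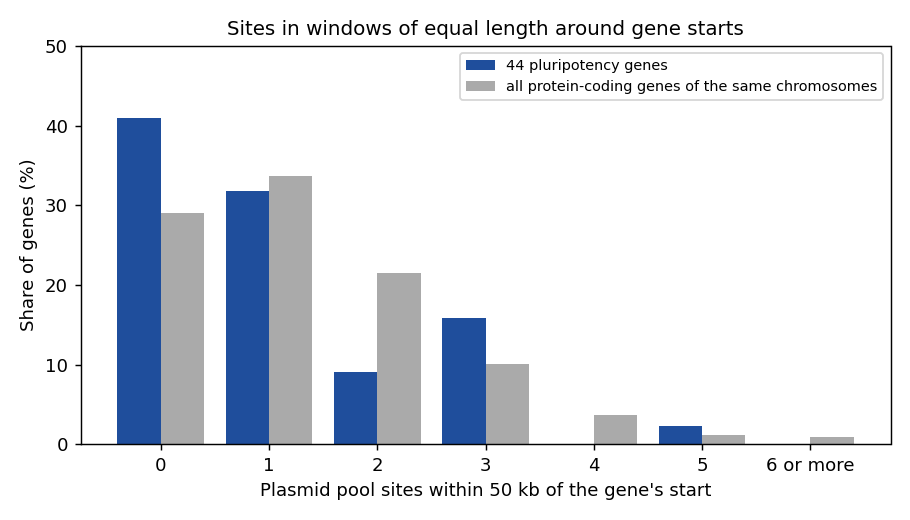
Share of genes in percent, by the number of plasmid pool sites within 50 kb of the gene's start. Blue bars are the 44 pluripotency genes and grey bars all 20088 protein-coding genes of the same chromosomes; 40.9% of the former and 29.0% of the latter had 0 sites.

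Each protein-coding gene's window was then tested against its expectation with an exact two-sided Poisson test, with Benjamini-Hochberg adjustment over 21755 genes. Of all genes, 0.202% were called higher and 0% lower in the plasmid pool at an adjusted p below 0.05. Of the 44 pluripotency genes, 0 were called in either direction, and 0 had an unadjusted p below 0.05 against 4.16% of all genes. A negative binomial test and a negative binomial regression called 0.11% and 0.12% of all genes higher and 0 of the 44. The lowest unadjusted p was that of Il6st (exact Poisson p 0.0542, adjusted p 1). Expected counts ran from 1.16 to 4.04 sites, so that between 8 and 15 sites would have been needed for a call. A window with 0 sites could have reached an unadjusted p below 0.05 at 1 gene only, which was Jarid2, with the longest window.

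The core factors had no insertion in reach. Pou5f1, which encodes the POU-domain factor Oct4 (chromosome 17, 35506018 to 35510772), had 0 plasmid pool sites in its window, with 1.26 expected. Sox2, the HMG-box partner of Oct4 (chromosome 3, 34650405 to 34652461), had 0 with 1.26 expected, and the homeobox gene Nanog (chromosome 6, 122707489 to 122714633) had 0 with 1.32 expected. Over the 3 windows together, 0 sites were found where 3.84 were expected (0 times, 0 to 0.961). Of the 7 role groups, this was the only one whose interval in the plasmid pool does not include 1. The interval assumes Poisson counts and is too narrow, as the negative binomial dispersion over all genes was 0.316 in this pool. The single tests gave an exact Poisson p of 0.642 for Pou5f1, 0.642 for Sox2 and 0.648 for Nanog (adjusted p 1 for each). The nearest plasmid pool insertions lay 76.3 kb from the start of Pou5f1, 70.1 kb from that of Sox2 and 132.7 kb from that of Nanog. No remobilized pool site lay in these windows either; the nearest was 74.3 kb away for Nanog, 498.5 kb for Pou5f1 and 15.9 Mb for Sox2.

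The promoters of these genes differ in how many TA they offer. The 250 bases before the RefSeq start (GRCm38.p6) are shown for the core factors because no insertion was found near them, with every TA in capitals.
Pou5f1, chr17:35505782-35506031, plus strand: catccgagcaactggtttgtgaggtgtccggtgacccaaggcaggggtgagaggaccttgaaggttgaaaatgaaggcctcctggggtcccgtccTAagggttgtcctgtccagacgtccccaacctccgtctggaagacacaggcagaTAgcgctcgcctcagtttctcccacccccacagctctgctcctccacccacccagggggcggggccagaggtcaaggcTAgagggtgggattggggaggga
Sox2, chr3:34649745-34649994, plus strand: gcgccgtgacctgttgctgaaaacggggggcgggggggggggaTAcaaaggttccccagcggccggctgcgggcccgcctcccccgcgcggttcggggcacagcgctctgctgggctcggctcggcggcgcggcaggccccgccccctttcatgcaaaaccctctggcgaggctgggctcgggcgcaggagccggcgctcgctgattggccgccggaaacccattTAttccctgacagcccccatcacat
Nanog, chr6:122707239-122707488, plus strand: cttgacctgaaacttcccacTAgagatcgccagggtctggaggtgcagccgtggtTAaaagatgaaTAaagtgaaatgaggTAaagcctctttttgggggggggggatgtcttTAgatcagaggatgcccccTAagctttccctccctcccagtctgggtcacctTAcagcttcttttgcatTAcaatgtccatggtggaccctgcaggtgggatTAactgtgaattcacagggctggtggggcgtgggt
TA, which reads the same on both strands, occurred 3 times before Pou5f1, 2 times before Sox2 and 9 times before Nanog. The median was 9 over 32619 RefSeq promoters, of which 98.7% held at least 1, and 7 over the 31 listed genes with an entry. Tet2 and Lifr had 0 TA in this stretch and Tdgf1 had 22. Leaving out the 3 sites at Fbxo15, whose chromosome has no entry in the promoter table used, 0 sites of both pools lay in one of its RefSeq promoters, counted from 250 bases before to 50 after the start. Promoters without an entry, among them those of listed genes such as Klf5, were not compared. The number of TA is a description of these stretches, and whether it bears on the counts was not tested.

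Among the 14 genes of the naive network, 23 plasmid pool sites were found where 24.1 were expected (0.956 times, 0.606 to 1.43). Nr5a2, a nuclear receptor, had the most sites of any listed gene, 6 in 217.9 kb, or 27.5 per Mb (10.1 to 59.9), with 2.70 expected (exact Poisson p 0.0566, adjusted p 1). Of these, 4 lay in its introns on chromosome 1 at 136878401, 136889192, 136909795 and 136922355, with 2 to 3 reads each. All 4 intronic sites were on the plus strand, opposite to the gene, while 2 more lay 13.2 and 30.9 kb below its end, on opposite strands from each other. Esrrb, an orphan nuclear receptor of the naive network, carried 3 intronic sites, at 86362328, 86363878 and 86447351 on chromosome 12. Each had 1 read and was on the strand of the gene. The first lay 1.21 kb inside the gene, the closest plasmid pool insertion to the GENCODE start of any listed gene. With 3.44 sites expected in its long window, Esrrb was at 0.872 times its expectation.

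The Krüppel-like factors Klf2, Klf4 and Klf5, zinc-finger proteins that can in part stand in for one another, differed in their counts within the range of the expectation. Klf4 had 3 sites, or 28.5 per Mb (5.87 to 83.2), against 1.47 expected (exact Poisson p 0.184, adjusted p 1). These were the 3′ UTR site shown above with 1 read, one 23.3 kb above the start with 2 reads, and one 38.7 kb below the end with 6 reads, all on the strand of the gene. Klf5 had its 3′ UTR site with 2 reads and another 5.26 kb above its start. Klf2 had 0 sites.

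Sall4, a zinc-finger factor that interacts with Oct4 and Nanog, had 3 plasmid pool sites, or 25.1 per Mb (5.17 to 73.3; exact Poisson p 0.221, adjusted p 1). One of them was intronic, at 168763070 on chromosome 2, 4.87 kb inside the gene and with 2 reads. Zfp281, another zinc-finger factor, had 1 site, which lay 4.62 kb above its start. Rif1, which acts in DNA replication timing, had 2 sites, both below its end. Tbx3, Tfcp2l1 and Zfp42 (Rex1) had 1 site each, and Prdm14, Mycn and Gbx2 had 0, with 1.28 to 1.41 expected at the latter 3.

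Other genes known for their expression in stem cells and the early embryo, 9 in number, had 15 sites where 13.0 were expected (1.16 times, 0.648 to 1.91). Dppa5a had 3 sites, or 29.7 per Mb (6.12 to 86.7; exact Poisson p 0.192, adjusted p 1). Of these, 2 lay only 46 bp apart on the same strand, with 1 read each, and may be 1 insertion. Tcl1, a coactivator of the kinase Akt, also had 3 sites (28.3 per Mb, 5.83 to 82.7; exact Poisson p 0.167, adjusted p 1). None of them was inside the gene: they lay 17.3, 30.9 and 34.8 kb below its end.

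Lin28a, an RNA-binding protein that blocks the maturation of let-7 microRNAs, had 3 sites (26.0 per Mb, 5.36 to 75.9; exact Poisson p 0.220, adjusted p 1), of which 2 were inside the neighbouring gene Dhdds. Dppa4 had a site 1.98 kb above its start, with 2 reads. The window of the adjacent gene Dppa2, which encodes its binding partner, reached the same site, and neither had another. Fbxo15 had 3 sites, 1 of them intronic with 1 read, and 1 with 8 reads 33.0 kb below its end that was the best-supported site of all windows. That site joined 2 deposited positions on opposite strands. Utf1 and Mybl2 had 1 site each and Dppa3 had 0.

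The ligands, co-receptor and inhibitors of Nodal signalling, with Fgf4 and its target Etv5, made up the group of 7 genes with the lowest density among groups with any site. They had 5 sites where 9.57 were expected, 0.522 times (0.170 to 1.22). Etv5 held 3 of the 5, and these lay 4.68, 23.3 and 39.2 kb above its start. Lefty1 (an inhibitor of Nodal) and Gdf3 (a ligand related to Nodal) had 1 site each, both more than 30 kb away. Nodal, its co-receptor Tdgf1 (Cripto), Lefty2 and Fgf4 had 0 sites. The distance from the gene's start to the nearest plasmid pool site was 92.0 kb for Nodal. For Fgf4 it was 152.1 kb from the GENCODE start, which lies 14019 bp above the RefSeq start.

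**Figure D3:**
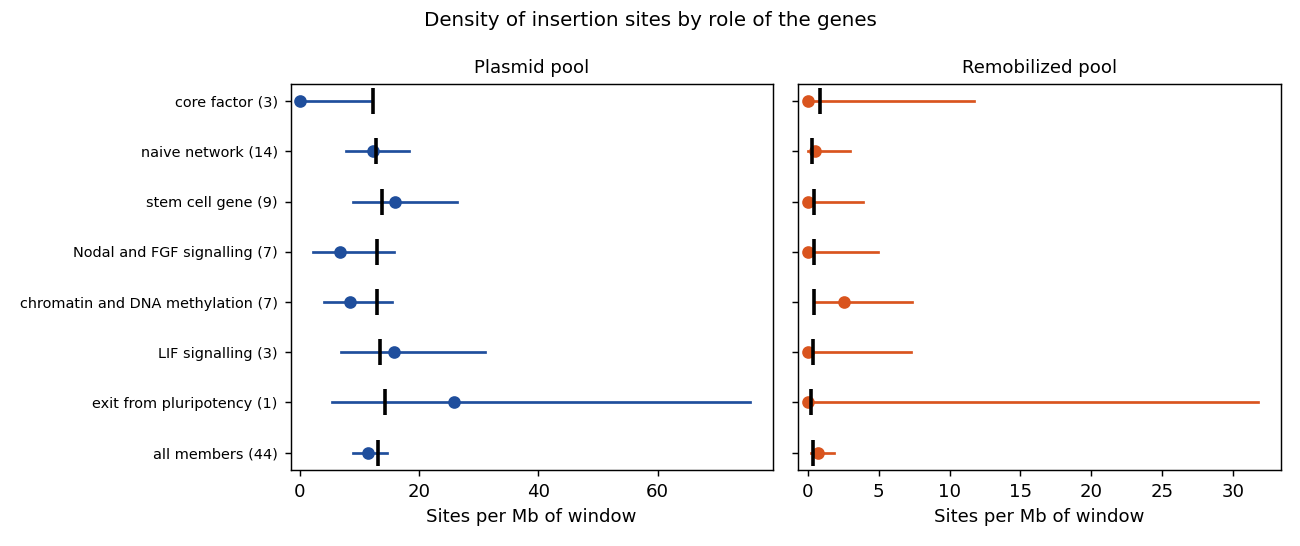
Sites per Mb of joined window by role of the genes, with the number of genes in brackets, for the plasmid pool (left) and the remobilized pool (right). Points are densities, lines exact 95% Poisson intervals, and black ticks the density expected from all protein-coding windows of the same chromosomes; all 44 genes together had 11.5 and 0.716 sites per Mb.

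The LIF pathway had 8 sites where 6.79 were expected (1.18 times, 0.508 to 2.32). Il6st encodes gp130, the signalling chain that LIF receptor complexes share. It had the highest density of the 44 genes, with 5 sites or 34.2 per Mb (11.1 to 79.9) against 2.02 expected. Of these, 4 lay between 7.56 and 29.1 kb above its start, 2 on each strand, and the fifth was intronic at 112467964 on chromosome 13, 3.89 kb inside the gene; all had 1 or 2 reads. Stat3, the transcription factor activated by LIF, had an intronic site 3.56 kb inside the gene with 2 reads and another 6.20 kb above its start. Lifr, the ligand-binding chain, had 1 site in 206.9 kb, inside the neighbouring gene Egflam and not in Lifr.

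Among the 7 chromatin and DNA methylation genes, 10 plasmid pool sites were found where 15.3 were expected (0.653 times, 0.313 to 1.20). Jarid2, a subunit of Polycomb repressive complex 2, had 4, of which 2 were intronic and 1 was in the 3′ UTR, each with 1 read. Trim28 (KAP1), a corepressor of endogenous retroviruses, carried the one coding-exon insertion, with 2 reads, 3.72 kb from its RefSeq start. Dnmt3b, a de novo DNA methyltransferase, and Tet1, which oxidises 5-methylcytosine, had 2 sites each, all outside the genes. Tet2, Dnmt3l (a cofactor of the de novo methyltransferases) and the Polycomb gene Phc1 had 0. Otx2, a factor of the exit from the naive state, had 3 sites (25.8 per Mb, 5.33 to 75.5; exact Poisson p 0.231, adjusted p 1), one of them intronic, and all on its own strand.

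The position of the sites relative to the genes was compared next. Gene bodies held 18 of 65 pairs of a gene and a plasmid pool site (27.7%, 17.3 to 40.2) and made up 24.8% of the window bases. Over all protein-coding genes of the same chromosomes, 32.7% of pairs lay in gene bodies, which made up 33.2% of the bases. Per Mb, the bodies of the pluripotency genes had 12.4 sites (7.37 to 19.6) and the flanks 10.7 (7.85 to 14.2), against 13.5 and 13.8 for all genes. Within the bodies there were 14 intronic sites, 3 in 3′ UTRs, 1 in a coding exon and 0 in 5′ UTRs. Exons as a whole held 6.15% of pairs (1.70 to 15.0), against 1.94% for all genes. Outside the bodies, 23 pairs were above the start and 24 below the end. The 46 sites outside the listed genes included 18 in another protein-coding gene, and 26 sites lay in no annotated gene.

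Orientation was read from the deposited strand, whose relation to the transposon's direction the labels do not state. Of the 18 sites in gene bodies, 12 were on the strand of the gene (66.7%, 41.0 to 86.7), against 48.1% over all protein-coding genes. The interval includes 50% and the share of all genes, but without the Nr5a2 locus the share was 85.7% (57.2 to 98.2), an interval that includes neither. With at least 2 reads per site it was 55.6% (21.2 to 86.3), and for the part of the bodies within 50 kb of the start 81.8% (48.2 to 97.7). All 4 exonic sites were on the strand of the gene, as were 8 of 14 intronic sites. Outside the bodies the shares were even, with 24 of 47 pairs on the strand of the gene (51.1%, 36.1 to 65.9). The intronic sites of Nr5a2 alone account for 4 of the 6 sites in gene bodies that were opposite to their gene.

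Read support in the windows was low, as in the whole pool. The 64 plasmid pool sites held 120 reads, from 1 to 8 per site with a median of 2. One read was found at 27 sites (42.2%, 29.9 to 55.2), against 45.2% of sites in all protein-coding windows, and 2 reads at 27 more. Only 2 sites, those of Fbxo15 and Klf4, had 5 or more reads (3.13%, against 6.22% in all protein-coding windows). No second read supports a site with 1 read, which was the case for 9 of the 18 sites in gene bodies: the 3 in Esrrb, the 3 in Jarid2, and those in Il6st, Fbxo15 and the 3′ UTR of Klf4.

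Insertions close to the GENCODE start were found at 9 of 44 genes, which had a plasmid pool site within 5 kb on either side (20.5%, 9.80 to 35.3), against 11.8% of all protein-coding genes. These were Esrrb, Dppa4, Stat3, Il6st, Otx2, Zfp281, Klf4, Etv5 and Sall4. The median distance from the start to the nearest site was 35.4 kb, against 27.5 kb for all genes. The quartiles were 12.0 and 70.3 kb, where those of all genes were 11.2 and 56.3 kb, and the interval of the share within 5 kb includes the share of all genes.

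**Figure D4:**
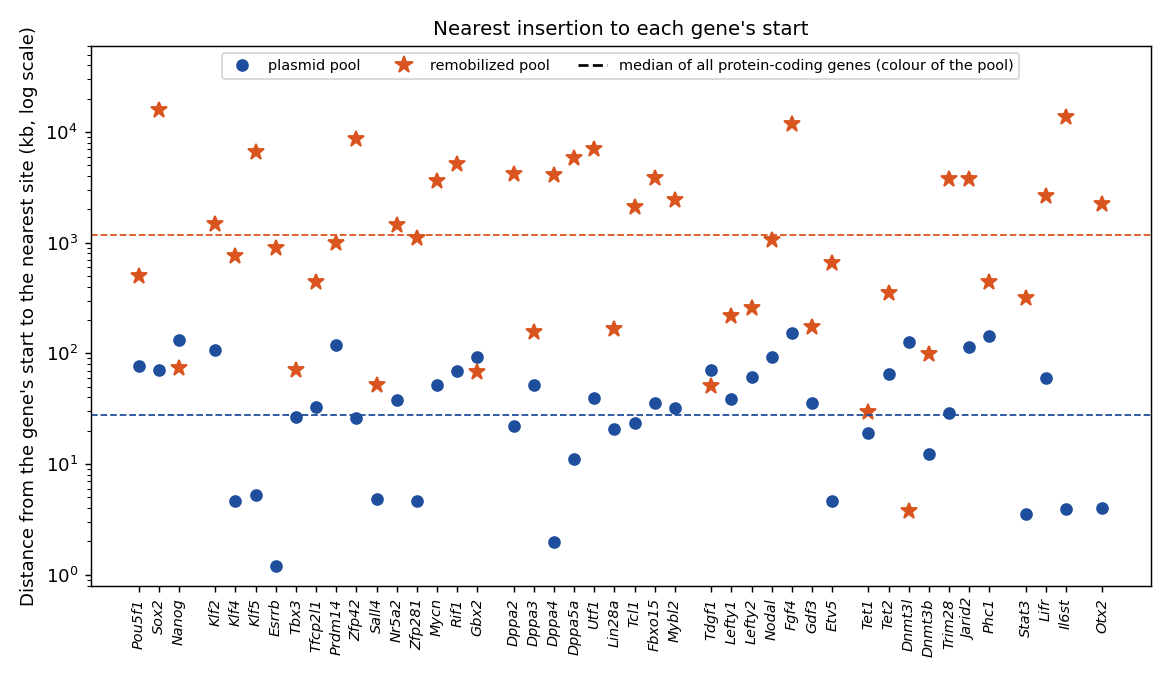
Distance in kb (log scale) from each gene's start to the nearest site of the plasmid pool (blue circles) and of the remobilized pool (orange stars). Dashed lines are the medians of all protein-coding genes of the same chromosomes, 27.5 kb and 1175 kb; only Nanog, Gbx2, Tdgf1 and Dnmt3l had the nearest remobilized site closer than the nearest plasmid site.

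The remobilized pool, with 746 sites in all, had 4 in the windows, or 0.716 per Mb (0.195 to 1.83). On the density of each chromosome 2.00 were expected, and the ratio was 2.00 (0.544 to 5.11). The ratio moved with the choice of sites and windows: it was 0.844 (0.0214 to 4.70) with at least 2 reads per site, which left 1 site, and 5.11 (0.619 to 18.5) in gene bodies alone. With 100 kb on each side 9 sites were counted at 2.81 times the expectation (1.29 to 5.34), an interval that does not include 1. It assumes Poisson counts, while window counts of this pool spread more widely (negative binomial dispersion 4.71 over all genes with 50 kb on each side). In all protein-coding windows the density was 0.384 per Mb. The windows of 41 genes were empty (93.2%, 81.3 to 98.6), as were 93.7% of those of all protein-coding genes. None of the 4 sites was shared with the plasmid pool within 10 bp. The share over all 746 sites is not given here, so this count says nothing particular about these genes.

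Of the 4 sites, 3 lay at chromatin genes of chromosome 10. Tet1 had 2: one at 62857352, in an intron, with 1 read on the strand of the gene, and one at 62938338, 29.3 kb above the GENCODE start and inside the neighbouring gene Slc25a16, with 2 reads. GENCODE begins Tet1 21.7 kb above its RefSeq start, so the intronic site lay 30.0 kb from the latter. Dnmt3l had 1 site at 78045728, in an intron 3.78 kb from its start, with 1 read on the strand of the gene. The fourth site, at 168716110 on chromosome 2, was 32.2 kb below the end of Sall4, inside Atp9a, with 1 read. The group of chromatin and DNA methylation genes thus had 3 sites where 0.478 were expected (6.28 times, 1.30 to 18.4), a value that rests on 3 sites with 4 reads at 2 of 7 genes. It was the one of the 7 role groups whose interval in this pool does not include 1. That interval assumes Poisson counts and is too narrow for this pool, where the negative binomial dispersion over all genes was 4.71.

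In the exact Poisson test over all 21755 genes, 0.138% were called higher and 0% lower in the remobilized pool, and 0 of the 44 pluripotency genes were. Both negative binomial models called 0.0184% of all genes higher and 0 of the 44. Unadjusted p-values below 0.05 were found at 3 of the 44 and at 4.07% of all genes. The unadjusted values were 0.00118 for Tet1 (exact Poisson test, adjusted p 0.284), 0.0278 for Sall4 and 0.0290 for Dnmt3l (adjusted p 1 for both). Expected counts were at most 0.233 sites, and 0 sites could not be called at any of the 44 genes. In the windows of Dnmt3l and Sall4, with 0.0294 and 0.0282 expected, 1 site was enough for an unadjusted p below 0.05. Between 3 and 5 sites would have been needed for a call.

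The pools were also compared gene by gene, by two-sided Fisher's exact tests of the sites in and outside each window. Of all genes, 0.161% were called with a higher share in the remobilized pool and 0% with a lower share, and none of the 44 was called. Tet1 had 2 of 746 and 2 of 31146 sites (Fisher's exact p 0.00318, adjusted p 0.544), and Dnmt3l had 1 and 0 (exact p 0.0234, adjusted p 1). These 2 were the genes with an unadjusted p below 0.05, against 3.27% of all genes. Sall4 had 1 and 3 (exact p 0.0903, adjusted p 1). The tests compare 2 libraries of 1 sequencing run and not the conditions.

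Nanog, Dppa3, Gdf3 and Phc1 lie on chromosome 6, on which the remobilized pool had the largest share of its sites. Their starts are 71.0 to 71.4 Mb from the best-supported site of the 5kb clone, at 51321894. The remobilized pool had 244 sites on this chromosome, 89 of them more than 10 Mb from that site, and 0 in the windows of the 4 genes. In the plasmid pool the 4 genes had 1 site, the one 30.6 kb below the end of Gdf3. Nanog had its nearest remobilized pool site 74.3 kb from its start, closer than its nearest plasmid pool site at 132.7 kb, although the remobilized pool had far fewer sites.

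Further genes of the same pathways, 59 in 6 lists of 10 with Fgf5 in 2 of them and none of the 44, were counted in the same way. Their windows had 166 plasmid pool sites where 151.4 were expected (1.10 times, 0.936 to 1.28) and 9 remobilized pool sites where 4.71 were expected (1.91 times, 0.874 to 3.63). None of the 59 was called in either pool or between pools. In the plasmid pool the lists ran from 0.850 times the expectation for Nodal and activin signalling (18 sites, 0.504 to 1.34), which includes the receptors Acvr1b and Acvr2a, to 1.24 times for WNT signalling (30 sites, 0.836 to 1.77), which includes Ctnnb1. LIF and JAK-STAT genes were at 1.09 times (21 sites), FGF and ERK genes at 1.20 times (63 sites), DNA methylation and Polycomb genes at 0.917 times (18 sites), and lineage genes such as Gata6 and Pax6, which are background for other fates, at 1.00 times (16 sites). All 6 intervals include 1. In the remobilized pool the FGF and ERK list had 3 sites at 2.94 times the expectation (0.606 to 8.59) and the DNA methylation and Polycomb list 3 sites at 2.77 times (0.571 to 8.09). The LIF and JAK-STAT list had 1 site, the WNT list 2, and the Nodal and lineage lists 0, and these intervals include 1 as well.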

How the data were processed

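Libraries of T7 transcripts from purified genomic DNA were examined for 2 pools, 1 control and 9 clones. The parental line was not analysed here. The deposited tables list positions with a strand and whole-number read counts, with no normalization stated. The submitters' processing notes name FastQC, BWA, deepTools and mm10 (GRCm38), without versions or roles. Duplicate treatment, filters and whether 1 count is a read or a mate are not given in the sources used here. Reads of 2 parental genomes were placed on 1 reference, and alleles were not told apart.

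Positions within 10 bp were merged on either strand, with no minimum of reads. Windows were GENCODE M21 genes with 50 kb on each side. Expected counts were window length times the density in joined windows of protein-coding genes of the same chromosome, chromosomes 1 to 19 and X. Tests were exact two-sided Poisson tests per gene and Fisher's exact tests between pools, with Benjamini-Hochberg adjustment over 21755 genes (scipy 1.17.1, numpy 2.4.6, statsmodels 0.14.6). Neighbouring windows share sites, so genes are not independent. Intervals are exact Poisson or Clopper-Pearson intervals. The exact Poisson test, the negative binomial test and the merging of positions were checked on simulated data, with windows drawn independently of one another. Fisher's exact tests and the negative binomial regression were not checked in this way.

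The genes and lists were chosen with earlier results of these data known. The design named in full the 8 genes with the most plasmid pool sites per Mb, the genes with a remobilized pool site, called genes, and sites inside a gene or within 5 kb above its start; other sites were placed individually after their values were seen. RefSeq promoters of GRCm38.p6 matched 31 of the 44 genes. Alternatives were other merging distances, minimum reads, windows, comparison sets and negative binomial models.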

Additional observations from a re-analysis of the deposited data

How the results depend on the processing

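The number of the 44 genes called stayed at 0 in either pool under each alternative that refitted the tests, and between pools under those of them that were not negative binomial models, which were run within pools only; the lowest adjusted p among the 10 genes with full statistics was 0.165 (Tet1, remobilized pool, exact Poisson test against the whole annotated span). The negative binomial models called 0.11% and 0.12% of all genes in the plasmid pool and 0.0184% in the remobilized pool, against 0.202% and 0.138% with the exact Poisson test. With them 0 of the 44 genes had an unadjusted p below 0.05 in the plasmid pool, and 3 and 2 did in the remobilized pool. The share of all genes below 0.05 is not given here for these models, so these counts cannot be set against it.

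With at least 2 reads per site the windows held 37 plasmid pool sites (6.62 per Mb) and 1 remobilized pool site (0.179 per Mb, 0% in gene bodies), and 0% had 1 read by construction. With at least 5 reads they held 2 (0.358 per Mb, 0.444 times the expectation, 0% in gene bodies) and 0 (0 per Mb, ratio 0). Gene bodies alone held 18 and 2 sites, genes with 10 kb on each side 27 and 2, and genes with 100 kb 110 and 9. Sites within 50 kb of the start numbered 2 in the remobilized pool, 0.953 times the expectation. The remobilized pool's ratio, 2.00 as reported, was 0.844 (0.0214 to 4.70) with at least 2 reads, 5.11 (0.619 to 18.5) with gene bodies, 2.41 (0.292 to 8.72) with 10 kb and 2.81 (1.29 to 5.34) with 100 kb, where the interval does not include 1. These intervals assume Poisson counts and are too narrow for the wider spread of this pool. The share of plasmid pool sites in gene bodies followed the window, at 100%, 66.7% and 16.4%, and was 56.3% when any protein-coding gene was counted. In the remobilized pool it was 100% with gene bodies, with 10 kb and with any protein-coding gene counted, and the share with 1 read was 100% with gene bodies and with 10 kb. In the plasmid pool the ratio to the expectation otherwise ran from 0.826 without Nr5a2 to 0.943 against the annotated span. No paired analysis was possible because each group is 1 library. At most 0.233 sites were expected in a window of the remobilized pool and at most 4.04 in one of the plasmid pool, so a window with 0 sites could not be called in either.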
